A study of Mus musculus with 18 samples.

Results

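The epithelium of mammary buds with stabilized β-catenin, taken at embryonic day E13.5, was set against the epithelium of normal mammary sprouts taken at E16.5, to ask which genes of the sprout the mutant bud already transcribed and which it lacked. The comparison was limited to genes on the 19 autosomes, because the E13.5 pools held embryos of both sexes and the E16.5 pools females alone. Of the 18 libraries of the series, 4 were E13.5 stabilized buds and 5 were E16.5 control sprouts. Of 17269 genes with enough counts to be tested, 16580 were autosomal. The stabilized embryos were Krt14Cre/wt; Ctnn1bflox3/wt: the keratin 14 promoter drives the Cre recombinase, which removes exon 3 from a single Ctnnb1 allele (spelled Ctnn1b in the labels) in the epithelium, while the other allele stays wild type. The controls carried the same floxed allele without Cre (Krt14wt/wt; Ctnn1bflox3/wt) and were littermates of stabilized embryos of their own stage. All embryos were a mix of C57Bl/6 and NMRI. Mammary buds 1 to 3 were freed from ventral skin with enzymes and dissected with needles, and each library pooled 2 or 3 embryos of a single litter and genotype. The study drew on a minimum of 3 litters per group, but which library came from which litter is not stated, and the p-values measure the spread between pooled samples. Stage, genotype, sex makeup and the presence of Cre all differ between the compared groups, and their parts in a difference cannot be told apart. The 4 E13.5 control libraries, normal buds of the mutants' own stage, are given last where their values help.

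β-catenin, encoded by Ctnnb1, links cadherins to the cytoskeleton and also carries the canonical Wnt signal: when Wnt binds its receptors, β-catenin escapes destruction, enters the nucleus and joins TCF/LEF factors on target genes. The part of the protein encoded by exon 3 holds the sites that mark it for destruction, so a protein without it stays active without a Wnt ligand. The mammary gland begins as an epidermal placode that sinks into a bud, and the bud later sprouts into the fat pad precursor and branches, while its cells begin to divide quickly and to separate into basal and luminal types. Wnt, Hedgehog, Fgf, Bmp and Eda signals shape every skin appendage, and hair follicles use them too.

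Library totals were 26768810 to 27998587 counts in the stabilized buds and 27659003 to 36922108 counts in the control sprouts. Levels are given as CPM, each count divided by the library's composition-scaled total and multiplied by 1000000, which suits comparisons of a gene between samples but not between genes. The dissected tissue carried epithelial transcripts in both groups. E-cadherin (Cdh1) had 393, 297, 350 and 325 CPM in stabilized buds and 356, 396, 346, 344 and 304 CPM in control sprouts, so the groups overlapped (log2 fold change -0.03 ± 0.146 SE, adjusted p = 0.883, edgeR). Tbx3, a transcription factor required for mammary placodes, had 519, 591, 591 and 507 CPM in stabilized buds, against 386, 479, 466, 404 and 422 CPM in control sprouts. The stabilized libraries were all above the sprout libraries, by a small margin (0.36 ± 0.132, adjusted p = 0.0397, edgeR). The keratins Krt8 and Krt18 and the adhesion molecule Epcam, also epithelial markers, were detected in all 9 libraries. Errors of CPM are SD over the 4 or 5 libraries, and errors of log2 fold changes are SE. In bulk tissue, fewer cells of a type and less RNA per cell cannot be told apart.

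Ctnnb1 (ENSMUSG00000006932, GRCm38/mm10 chromosome 9, 120929216 to 120960507, plus strand) had 2758, 3300, 3496 and 3487 CPM in stabilized buds and 1208, 1203, 1320, 1112 and 1395 CPM in control sprouts. The stabilized libraries were all higher, with means of 3260 ± 347 and 1248 ± 111 CPM (log2 fold change 1.39 ± 0.156, adjusted p = 1.02e-06, edgeR). E13.5 control buds, which have no Cre, averaged 2683 CPM, so a high gene count also marks the normal bud. Counts per gene do not show the loss of exon 3 and are no check of the genotype. Krt14, whose promoter drives the Cre, fell to 362, 416, 355 and 264 CPM in stabilized buds, against 565, 706, 724, 725 and 634 CPM in control sprouts (-0.94 ± 0.236, adjusted p = 0.0038, edgeR).

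Across the autosomes, 3025 of 16580 genes (18.2%) were higher in stabilized buds than in control sprouts and 3263 (19.7%) were lower, at an edgeR adjusted p below 0.05, or 6288 (37.9%) in all. Of these, 1822 (11.0%) were at least 2-fold higher and 1413 (8.52%) at least 2-fold lower. In 2957 genes (17.8%) every stabilized library lay above every sprout library, and in 3445 (20.8%) every one lay below. The median log2 fold change over all autosomal genes was 0.04. The gene lists below are read against these shares: a list whose share of higher members is near 18.2%, or of lower members near 19.7%, does not stand out from the genome at large.

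Wnt target genes were mostly higher in the stabilized bud. Of 25 Wnt target and feedback genes tested, 19 were higher in stabilized buds, 4 were lower and 2 did not pass, with a median log2 fold change of 2.39. Axin2, a scaffold of the β-catenin destruction complex and a common readout of the pathway, had 420, 348, 483 and 447 CPM in stabilized buds, against 23.2, 30.4, 26.0, 22.3 and 37.8 CPM in control sprouts. Every stabilized library lay far above every sprout library (3.93 ± 0.179, adjusted p = 5.11e-12, edgeR). Lef1, a nuclear partner of β-catenin, had 357, 278, 366 and 325 CPM in stabilized buds, against 15.1, 32.4, 29.7, 25.7 and 31.2 CPM in control sprouts (3.63 ± 0.209, adjusted p = 9.58e-11, edgeR). Normal E13.5 buds were high for both genes, with means of 312 CPM for Axin2 and 611 CPM for Lef1. Sp5, a zinc-finger factor that acts as a Wnt target and a repressor, had 103, 94.4, 171 and 154 CPM in stabilized buds. Control sprouts had 0, 0.0647, 0.0752, 0 and 0 CPM (12.04 ± 0.464, adjusted p = 1.12e-12, edgeR), and E13.5 control buds averaged 21.8 CPM.

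The promoters that hold a TCF/LEF motif show where such a sequence lies in genes that rose. The letters CTTTGAT were searched on both strands (ATCAAAG on the other) in RefSeq windows from 250 bases before to 50 after each gene start. Sp5 (GRCm38.p6, chr2:70474673-70474972, plus strand) holds the motif, printed in capitals, ahead of its start. Tnfrsf19, which encodes the TNF receptor family member Troy, holds it in its window at chr14:61037938-61038237 (minus strand), while its other window at chr14:61046806-61047105 does not.
Sp5: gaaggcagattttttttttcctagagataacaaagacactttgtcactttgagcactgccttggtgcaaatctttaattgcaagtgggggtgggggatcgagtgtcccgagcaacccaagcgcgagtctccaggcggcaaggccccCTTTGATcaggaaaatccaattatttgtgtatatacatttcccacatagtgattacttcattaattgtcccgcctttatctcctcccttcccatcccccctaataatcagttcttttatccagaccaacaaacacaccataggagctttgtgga
Tnfrsf19: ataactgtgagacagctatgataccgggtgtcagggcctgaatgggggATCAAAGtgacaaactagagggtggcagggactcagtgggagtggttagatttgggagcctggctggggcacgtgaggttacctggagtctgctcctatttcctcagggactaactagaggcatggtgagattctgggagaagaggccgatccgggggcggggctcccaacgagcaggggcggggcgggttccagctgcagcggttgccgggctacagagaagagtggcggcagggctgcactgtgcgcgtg
Windows were found for 15 of the 25 Wnt target and feedback genes, and 2 of them (13.3%) held the motif, beside 1118 of the 25748 autosomal genes in the promoter table (4.34%). Of the 10 genes with the largest rise, 6 had a window and 1, Sp5, held the motif. Tnfrsf19 itself averaged 211 ± 22.4 CPM in stabilized buds and 46.4 ± 8.8 CPM in control sprouts (2.18 ± 0.175, adjusted p = 1.14e-08, edgeR). A match of these letters describes the window and shows no binding.

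The feedback genes did not all move together. The cell cycle driver Ccnd1 had 282, 501, 349 and 367 CPM in stabilized buds, against 1902, 1551, 1556, 1463 and 1406 CPM in control sprouts. The growth regulator Myc had 21.0, 11.3, 35.0 and 14.8 CPM in stabilized buds, against 278, 289, 259, 258 and 194 CPM in control sprouts. Both genes were lower in every stabilized library than in any sprout (Ccnd1 -2.07 ± 0.215, adjusted p = 3.36e-07; Myc -3.64 ± 0.336, adjusted p = 1.97e-07, edgeR), and E13.5 control buds averaged 362 CPM for Ccnd1 and 18.6 CPM for Myc. The Dishevelled-binding protein Nkd2 was likewise lower (13.1 CPM in stabilized buds and 135 CPM in control sprouts, -3.37, adjusted p = 2.8e-08, edgeR), while its relative Nkd1 was higher (539 and 51.1 CPM, 3.40, adjusted p = 1.39e-11). Lgr5, a receptor for R-spondins, was lower (73.3 and 194 CPM, -1.41), and its relative Lgr6 was higher (411 and 78.5 CPM, 2.39).

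Secreted antagonists of Wnt were mostly higher too. Of 14 tested, 8 were higher in stabilized buds, 3 were lower and 3 did not pass (median log2 fold change 1.75). Dkk4 (ENSMUSG00000031535, chromosome 8, 22624043 to 22627547, plus strand), a blocker of the Lrp5/6 coreceptors, had 698, 307, 477 and 402 CPM in stabilized buds. The 5 control sprouts held a single Dkk4 count among them, in replicate 5 (0.0357 CPM). The ratio was 70210 with a 95% counting interval of 12601 to 2773193, which covers counting error only, and E13.5 control buds averaged 22.6 CPM. Notum, an enzyme that inactivates Wnt proteins, had 602, 369, 671 and 554 CPM in stabilized buds and 1.75, 0.453, 0.601, 0.57 and 1.07 CPM in control sprouts (9.25 ± 0.358, adjusted p = 1.93e-12, edgeR). Dkk1 had 8.41, 1.92, 24.9 and 8.9 CPM in stabilized buds and no count in any control sprout, a difference of at least 551-fold against a floor of 3 counts over the group. Wif1, which binds Wnt directly, is a sprout-stage gene that the stabilized bud exceeded, with 288, 161, 389 and 401 CPM in stabilized buds and 57.6, 84.3, 62.8, 58.6 and 72.3 CPM in control sprouts. Its log2 fold change was 2.21 ± 0.565 (adjusted p = 0.0062, edgeR), and E13.5 control buds averaged 7.29 CPM. Sfrp1, a secreted Frizzled-related protein, went the other way: it had 10.3, 15.4, 8.77 and 10.3 CPM in stabilized buds, against 228, 136, 207, 186 and 160 CPM in control sprouts (-4.03 ± 0.486, adjusted p = 6.82e-06, edgeR). Sfrp2 was also lower (9.58 and 36.2 CPM, -1.92), as was the matricellular protein Tinagl1 (6.51 and 78.6 CPM, -3.59).

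Wnt ligands were mostly higher in the stabilized bud than in the sprout, and receptors were mixed. Of 28 ligand and receptor genes tested (Wnt2 had too few counts), 16 were higher, 8 were lower and 4 did not pass (median log2 fold change 1.11). Wnt7a had 51.7, 88.3, 56.1 and 48.9 CPM in stabilized buds, against 1.31, 0.485, 2.18, 0.402 and 1.0 CPM in control sprouts. This was a clean separation (5.84 ± 0.363, adjusted p = 7.96e-10, edgeR), and the E13.5 control buds stood above both with a mean of 128 CPM. Wnt10b averaged 170 ± 22.2 CPM in stabilized buds and 10.7 ± 5.55 CPM in control sprouts (3.99 ± 0.318, adjusted p = 3.36e-08, edgeR). Wnt6, Wnt4 and Wnt10a were also higher than in sprouts, by 2.56, 2.95 and 3.92 on the log2 scale. Their means were 221, 67.0 and 65.6 CPM in stabilized buds, beside 420, 150 and 53.5 CPM in E13.5 control buds. Against E13.5 control buds, 4 genes of the list were higher and 4 were lower. All 8 lower genes were receptors or coreceptors: Fzd4, Fzd5, Fzd7, Lrp5, Lrp6, Ror1, Ror2 and Ryk, with log2 fold changes of -1.95 (Ror1) to -0.33 (Ryk). Fzd7 averaged 117 CPM in stabilized buds and 348 CPM in control sprouts (-1.57, adjusted p = 1.93e-07, edgeR), whereas Fzd10 averaged 320 and 36.9 CPM (3.12, adjusted p = 1.65e-08). Fzd8 showed no difference beyond its spread (19.9 ± 4.51 CPM in stabilized buds, 17.6 ± 4.1 CPM in control sprouts, adjusted p = 0.549, edgeR).

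The Hedgehog ligand Shh and its targets Ptch1 and Gli1 were high in the stabilized bud. Of 12 genes tested (Ihh and Dhh had too few counts), 6 were higher, 1 was lower and 5 did not pass, with a median log2 fold change of 0.85. Shh (ENSMUSG00000002633, chromosome 5, 28456815 to 28467256, minus strand), the ligand, had 138, 98.3, 163 and 165 CPM in stabilized buds. Control sprouts had 0.0292, 0.226, 0.376, 0.335 and 0.143 CPM (9.32 ± 0.629, adjusted p = 1.02e-08, edgeR). The E13.5 control mean was 0.155 CPM, so Shh was nearly absent from normal epithelium at either stage. The receptor and pathway target Ptch1 had 858, 783, 1131 and 1241 CPM in stabilized buds and 33.4, 33.7, 37.7, 33.8 and 40.6 CPM in control sprouts (4.81 ± 0.257, adjusted p = 4.04e-11, edgeR). The transcription factor Gli1, another target, had 145, 176, 156 and 138 CPM in stabilized buds and 1.49, 2.55, 1.84, 1.04 and 2.11 CPM in control sprouts (6.41 ± 0.488, adjusted p = 3.88e-08, edgeR). Hhip, a decoy for the ligand, was a sprout-stage gene that stabilized buds exceeded (12.3 CPM, against 4.82 CPM in control sprouts and 0.00809 CPM in E13.5 control buds, 1.35, adjusted p = 0.000391 against sprouts, edgeR). The coreceptor Boc was the lower member (32.5 CPM in stabilized buds and 63.8 CPM in control sprouts, -0.97), and Gli3 (98.5 and 84.2 CPM) and Cdon (59.2 and 62.7 CPM) did not pass. With the 9 libraries alone, 2 members were lower.

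Among Fgf ligands, 8 of 14 tested were higher in stabilized buds, 1 was lower and 5 did not pass (median log2 fold change 2.33). Fgf4, a ligand known from the limb and tooth, had 83.4, 104, 73.3 and 111 CPM in stabilized buds. Control sprouts had no count except in replicate 5 (0.571 CPM), and E13.5 control buds had none (9.69 ± 0.818, adjusted p = 8.88e-07 against sprouts, edgeR). Fgf20, which marks hair and mammary placodes, had 57.3, 40.3, 42.7 and 44.6 CPM in stabilized buds and 1.11, 0.808, 0.827, 0.201 and 0.535 CPM in control sprouts (6.04 ± 0.347, adjusted p = 9.39e-11, edgeR). Fgf1 was the lower ligand (3.63 CPM in stabilized buds and 12.9 CPM in control sprouts, -1.83), and 2 ligands were lower without stabilized replicate 2. Receptors and feedback genes of the ERK cascade were split, with 7 of 16 higher, 5 lower and 4 not passing (median log2 fold change 0.54). Fgfr2, the receptor needed for mammary placodes, was higher (573 and 305 CPM, 0.91) and Fgfr1 was lower (183 and 325 CPM, -0.83). The ERK-responsive factor Etv5 was lower (208 and 528 CPM, -1.34), and its relative Etv4 did not pass (71.5 and 81.7 CPM, adjusted p = 0.423, edgeR).

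Bmp ligands that the sprout had lost were present in the stabilized bud. Of 31 Bmp and TGF-β genes tested, 14 were higher, 6 were lower and 11 did not pass (median log2 fold change 0.57). Bmp4 had 395, 251, 339 and 285 CPM in stabilized buds and 0.321, 1.75, 1.88, 1.61 and 1.71 CPM in control sprouts (7.78 ± 0.352, adjusted p = 1.72e-11, edgeR). Bmp2 had 228, 249, 301 and 275 CPM in stabilized buds and 2.8, 4.07, 4.96, 5.7 and 2.14 CPM in control sprouts (6.07 ± 0.252, adjusted p = 1.71e-12, edgeR). Both ligands separated the groups fully, and E13.5 control buds averaged 83.3 CPM for Bmp4 and 265 CPM for Bmp2. Id3 and Smad7, which respond to Bmp signals, were higher than in sprouts by 3.60 and 1.42 on the log2 scale. Id3 averaged 339 CPM in stabilized buds and 273 CPM in E13.5 control buds. The activin subunit gene Inhbb had 12.1, 5.74, 8.84 and 11.0 CPM in stabilized buds, against 335, 280, 278, 309 and 273 CPM in control sprouts (-4.97 ± 0.568, adjusted p = 4.88e-06, edgeR). Follistatin (Fst), which binds activin, was lower too (6.45 and 96.3 CPM, -3.90), as was Id4 (51.4 and 331 CPM, -2.69), an inhibitor of helix-loop-helix factors found in basal mammary cells.

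**Figure D1:**
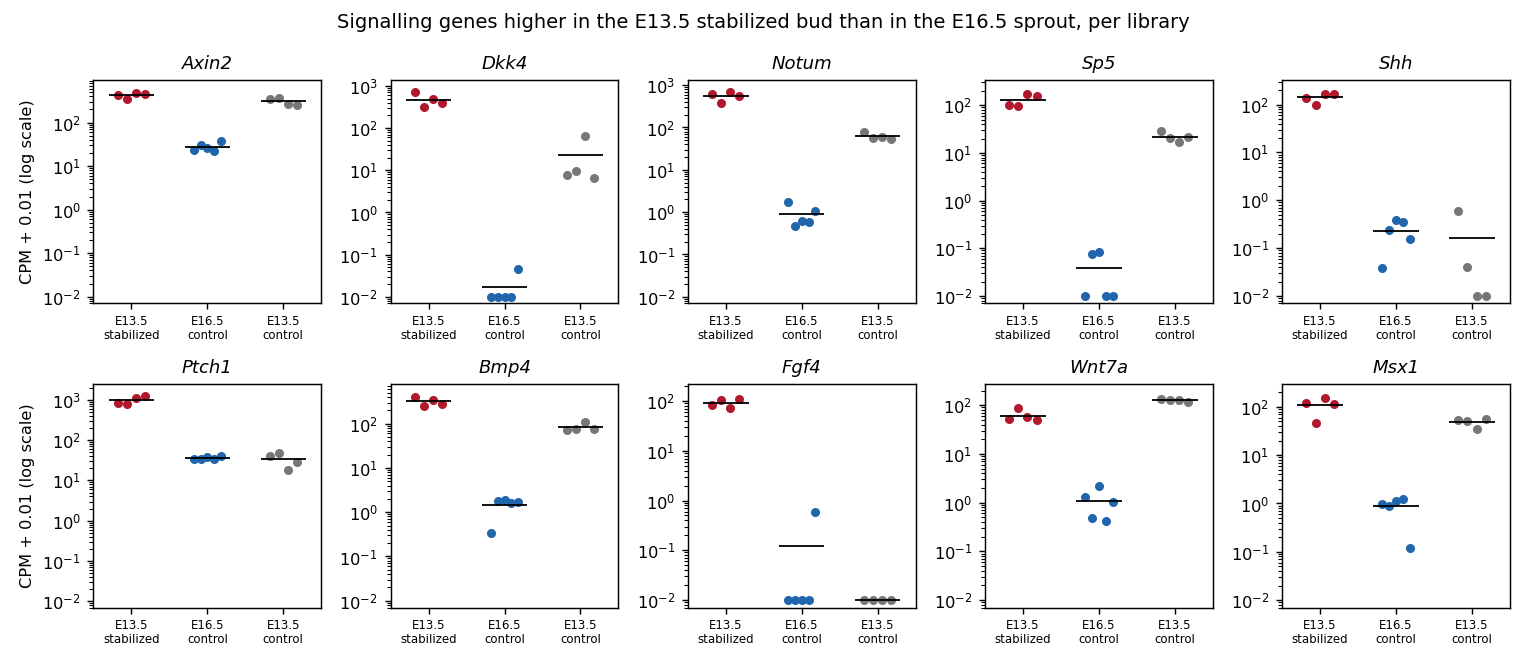
Levels of 10 signalling genes in each library, in CPM + 0.01 on a log axis, with E13.5 stabilized buds (red, 4 libraries) left of E16.5 control sprouts (blue, 5 libraries) and E13.5 control buds (grey, 4 libraries); bars mark means. In all 10 panels the red points lie above every blue point, and for Shh, Ptch1 and Fgf4 the grey points lie low as well.

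Ligands and receptors of the Egf family were lower more often than higher. Of 16 tested, 3 were higher in stabilized buds, 7 were lower and 6 did not pass; their median log2 fold change of -0.25 became -0.39 once genes at 0 counts were held to their bound. Tgfa, an Egfr ligand, had 8.52, 8.36, 19.7 and 17.5 CPM in stabilized buds, against 76.1, 110, 113, 96.1 and 138 CPM in control sprouts (-2.98 ± 0.502, adjusted p = 0.0002, edgeR). Nrg1, a ligand of Erbb3 and Erbb4, was lower (1.21 and 23.6 CPM, -4.28), as was its receptor Erbb3 (130 and 360 CPM, -1.47). Nrg3, a neuregulin that promotes mammary bud formation, was higher (4.29 and 0.196 CPM, 4.47), below the E13.5 control mean of 29.2 CPM. In the Eda and NF-κB list, 3 of 21 genes were higher, 7 were lower and 11 did not pass (median log2 fold change -0.52). The receptor Edar rose (251 and 63.7 CPM, 1.98, adjusted p = 1.41e-08, edgeR), while the NF-κB target Tnfaip3 fell (10.4 and 51.6 CPM, -2.31, adjusted p = 2.06e-06). The Notch list lay near the background, with 4 of 20 higher, 3 lower and 13 not passing (median log2 fold change -0.07). Within it the ligand gene Dll1 was lower (26.0 and 293 CPM, -3.49, adjusted p = 9.68e-09, edgeR), as was the target Hey1 (19.6 and 97.0 CPM, -2.31). Dll1 averaged 2.91 CPM in E13.5 control buds, below both groups.

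Sprout-stage genes were defined on the normal gland: autosomal, higher in E16.5 than in E13.5 control libraries at an adjusted p below 0.05, by at least 2-fold, and at 1 CPM or more in each E16.5 control library. In that comparison of normal stages, 4166 genes (25.1%) were higher at E16.5 and 3747 (22.6%) were lower, 2303 (13.9%) were higher and 2192 (13.2%) lower by at least 2-fold, and 1898 genes met the whole definition. Of these, 1009 (53.2%) were lacked by the stabilized bud, meaning that they were called lower than in control sprouts by at least 2-fold. Another 347 (18.3%) were already expressed, meaning that they were not called lower and had a log2 fold change above -1, and 542 (28.6%) fell between. Both comparisons use the same E16.5 control libraries, so these counts describe the genes and are no test of overlap. A gene counted as already expressed is not shown to have an equal level, since some missed the test with a wide spread. Lacked genes had a median log2 difference of -1.66 from control sprouts and of 0.42 from E13.5 control buds. Of the 1009, 307 were higher and 22 were lower in stabilized than in control E13.5 buds. The definition picks genes that are low in those same E13.5 control libraries. This favours calls of higher, so the 307 are a description too. Already expressed genes had medians of -0.28 and 1.51. Of the 347, 237 were called higher in stabilized than in control E13.5 buds, and 50 were higher in stabilized buds than in control sprouts. The definition fixes the direction of those 237 calls. A gene that rose at least 2-fold in normal development and stayed above -1 against sprouts must exceed E13.5 control buds. Among all autosomal genes, which are under no such rule, 1625 (9.80%) were higher in stabilized than in control E13.5 buds and 870 (5.25%) were lower.

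**Figure D2:**
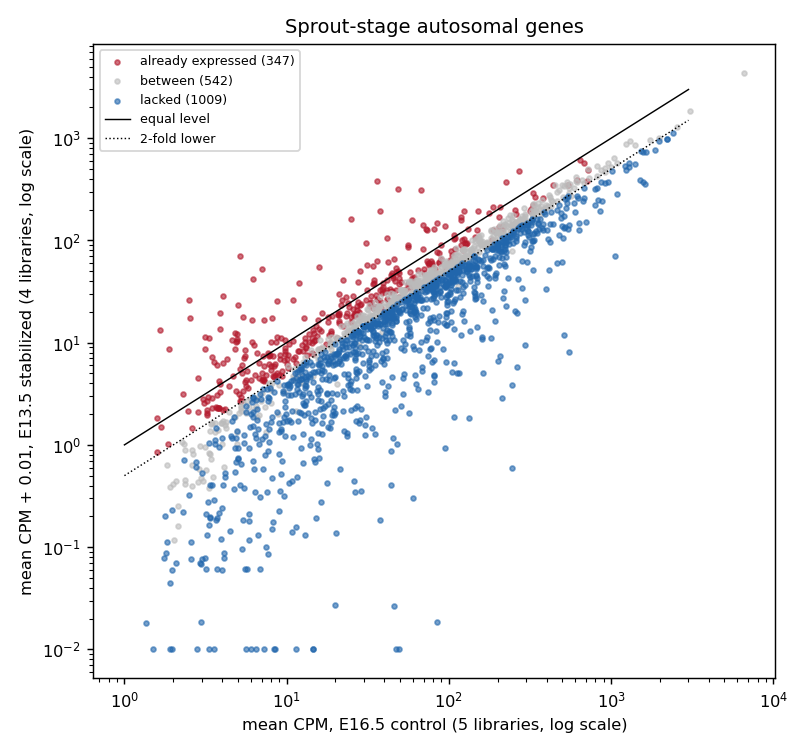
Mean CPM + 0.01 in E13.5 stabilized buds (vertical log axis) against mean CPM in E16.5 control sprouts (horizontal log axis) for the 1898 sprout-stage genes, coloured as already expressed (347, red), between (542, grey) or lacked (1009, blue). The solid line marks equal levels and the dotted line a 2-fold lower level in stabilized buds; the lacked genes reach down to the lowest row, where no stabilized library held a count.

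The 8 already expressed genes with the largest rise in normal development, among those at 20 CPM or more in the sprout, were Foxc1, Matn4, Adamts1, Thbs1, Col14a1, Pxdc1, Cspg4 and Cpm. Foxc1, a forkhead factor of skin and gland precursors, had 31.8, 7.23, 37.0 and 28.3 CPM in stabilized buds, against 37.2, 30.9, 43.9, 46.5 and 25.6 CPM in control sprouts and no count in any E13.5 control bud. The groups overlapped (-0.50 ± 0.373, adjusted p = 0.321, edgeR). Thbs1, which encodes the matrix glycoprotein thrombospondin 1, had 414, 130, 422 and 520 CPM in stabilized buds and 252, 223, 218, 250 and 175 CPM in control sprouts. Apart from replicate 2 the stabilized libraries were higher (0.73 ± 0.46, adjusted p = 0.228, edgeR), and E13.5 control buds averaged 10.9 CPM. Matn4, encoding the matrix protein matrilin 4, had 13.3, 7.07, 23.7 and 26.1 CPM in stabilized buds and 32.3, 24.9, 34.5, 27.0 and 25.3 CPM in control sprouts, with 0.0585 CPM on average in E13.5 control buds. Only stabilized replicate 4 reached the range of the sprouts (-0.71 ± 0.417, adjusted p = 0.192, edgeR). The fibrillar-collagen-associated Col14a1 had 258, 111, 305 and 359 CPM in stabilized buds, against 438, 401, 353, 354 and 347 CPM in control sprouts and a mean of 12.9 CPM in E13.5 control buds. The gene Cpm, which encodes carboxypeptidase M and is not the unit, averaged 46.7 ± 19.9 in stabilized buds and 84.1 ± 6.91 in control sprouts, with every stabilized library below every sprout (-0.85 ± 0.341, adjusted p = 0.0601, edgeR). It passed with the DESeq2 Wald test (-0.83, adjusted p = 0.0238) and with the 9 libraries alone (-0.82, adjusted p = 0.0463, edgeR). The protease Adamts1, the proteoglycan Cspg4 and the membrane protein Pxdc1 had log2 fold changes of 0.15, -0.13 and -0.28 with overlapping groups.

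In all 8 of these genes stabilized replicate 2 was the lowest of its group. Summed endothelial markers were also lowest in that library, at 9.32 CPM beside 23.7 to 27.2 CPM in the other stabilized buds and 8.71 to 21.5 CPM in control sprouts. Its summed mesenchyme markers were the highest (886 CPM beside 677 to 813 CPM in the other stabilized buds), but 673 CPM of that sum was Postn. The other stabilized buds had 375 to 490 CPM of Postn, and without this gene the mesenchyme sum of replicate 2 was the lowest of its group. The part of these markers in the result was not tested. Outside this class, replicate 2 was also the lowest stabilized library for Axin2 (348 CPM) and Shh (98.3 CPM). It was the highest for Wnt7a (88.3 CPM) and Gli1 (176 CPM). Over the 347 already expressed genes replicate 2 was the lowest stabilized library for 202 (58.2%). It was the lowest for 264 of the 542 genes that fell between (48.7%) and for 406 of the 1009 lacked genes (40.2%). Without that library 440 genes counted as already expressed in place of 347.

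Sprout-stage genes that the stabilized bud lacked included secreted, metabolic and luminal genes. All sprout-stage markers of immune cells (5), melanocytes (5) and neural crest and Schwann cells (3) were lacked too, Sox10 being in both latter lists. The sprout-stage endothelial marker Flt1 was already expressed. The part of other cell types in the lacked class was not tested. Lcn2 (ENSMUSG00000026822, chromosome 2, 32384633 to 32388252, minus strand), encoding the iron-trafficking protein lipocalin 2, had no count in the 4 stabilized buds and 93.4, 33.2, 34.9, 58.7 and 27.7 CPM in control sprouts, at least 1963-fold lower against a floor of 3 counts over the group. Cytl1, which encodes a cytokine-like secreted protein, also had no count in stabilized buds, against 78.3, 45.7, 30.1, 61.9 and 19.8 CPM in control sprouts, at least 1868-fold lower. The gluconeogenic enzyme gene Fbp1 had a single count among stabilized buds (0.0342 CPM in replicate 1) and 94.8, 91.5, 74.0, 91.7 and 68.7 CPM in control sprouts, a sprout-to-bud ratio of 10091 (95% counting interval 1811 to 398596). All 3 genes were at or near 0 in E13.5 control buds too. Ly6d, a surface protein of luminal progenitors, had 0, 0, 0.693 and 0 CPM in stabilized buds, against 40.4, 34.8, 25.7, 52.4 and 33.7 CPM in control sprouts (-7.75 ± 0.745, adjusted p = 7.33e-07, edgeR). The tetraspanin Tspan8 had 0.308, 0, 1.04 and 0 CPM in stabilized buds and 27.8, 20.2, 22.9, 31.8 and 29.0 CPM in control sprouts (-6.28 ± 1.06, adjusted p = 0.000382, edgeR). Tspan8, Krt79, Kcnn4 and Map3k21 were higher in stabilized than in control E13.5 buds, with adjusted p-values of 0.0392, 0.000142, 3.2e-08 and 1.84e-05 (edgeR). These genes were chosen for a large rise over the same E13.5 control libraries, which favours such calls. Krt79, a keratin of gland ducts and follicle canals, had 4.92, 1.06, 11.7 and 5.5 CPM in stabilized buds, against 109, 314, 246, 298 and 342 CPM in control sprouts and 0.0238 CPM on average in E13.5 control buds (-5.50 ± 0.672, adjusted p = 1.09e-05 against sprouts, edgeR). The potassium channel gene Kcnn4 (6.6, 5.11, 4.33 and 4.06 CPM in stabilized buds; 129, 89.7, 144, 114 and 103 CPM in control sprouts) and the kinase gene Map3k21 (means of 2.41 and 50.4 CPM) followed the same order, with log2 fold changes of -4.53 and -4.38.

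**Figure D3:**
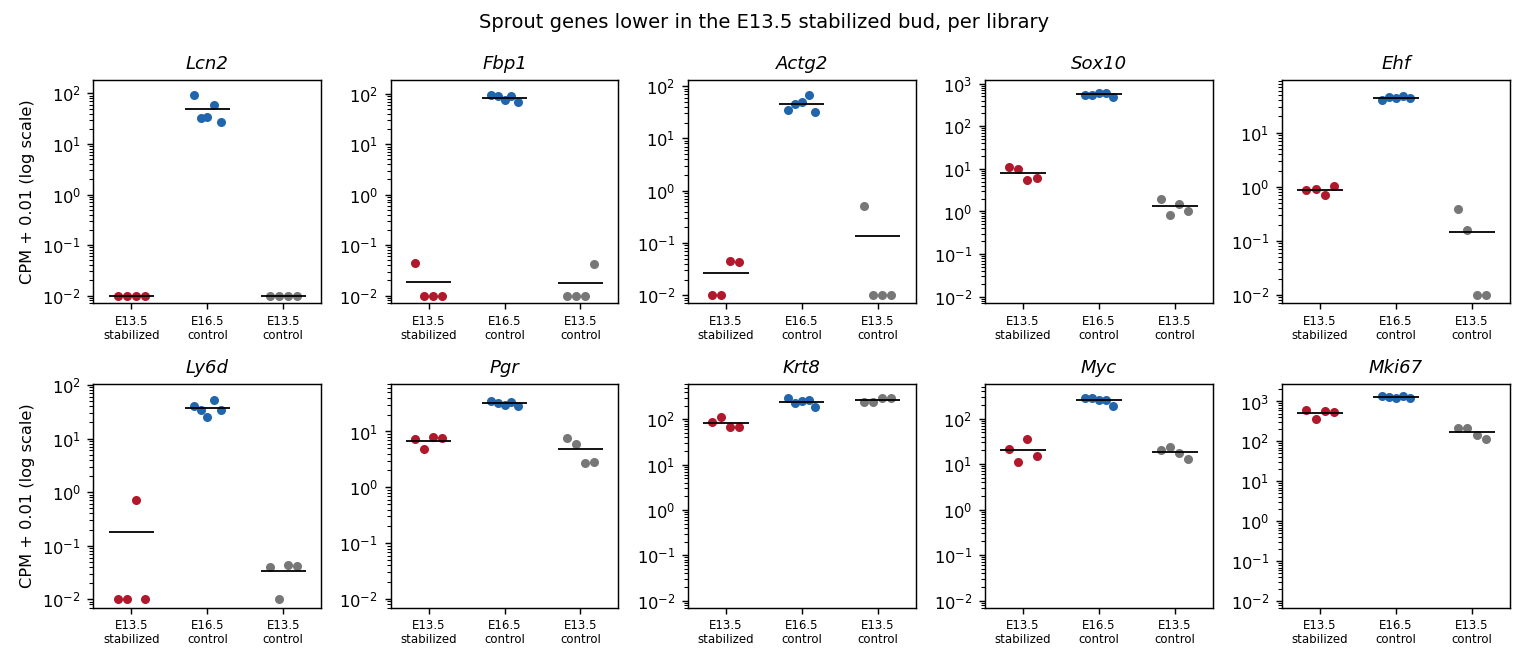
Levels of 10 genes in each library, in CPM + 0.01 on a log axis, with E13.5 stabilized buds (red) left of E16.5 control sprouts (blue) and E13.5 control buds (grey); bars mark means. All red points lie below all blue points in the 10 panels; for Lcn2 and Fbp1 the red and grey points sit at or near 0 counts, and for Krt8 the grey points are as high as the blue.

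By a stricter rule, 27 autosomal genes had at least 1 CPM in each control sprout and at most 3 counts in each stabilized bud, and 34 genes showed the reverse. The 27 genes included Lcn2, Fbp1, Cytl1, the smooth muscle actin Actg2 and the retinoic acid-producing enzyme Aldh1a1, and genes of mast cells (Tpsab1, Tpsb2, Cma1, Cpa3, Mcpt2) and the macrophage complement gene C1qc. The mast cell proteases were lowest in control sprout replicate 5, at 3.03 to 3.5 CPM for Tpsab1, Cma1 and Tpsb2, and the near-identical Tpsab1 and Tpsb2 cannot be separated with certainty. Genes present in stabilized buds and not in sprouts included the Wnt-responsive Dkk4, Dkk1, Sp5, Cdx1 and Cdx2, and the homeobox or zinc-finger factors Tlx2, Zic2, Zic5, Emx2, Six2 and Hoxc5. Cdx2, a factor of the hindgut and tail bud, had 9.78, 1.16, 23.4 and 17.0 CPM in stabilized buds and no count in any control sprout or E13.5 control bud, at least 639-fold higher than in sprouts. Tlx2 had 13.3, 10.4, 11.3 and 15.0 CPM in stabilized buds and no count in control sprouts, at least 624-fold higher. Among the 10 largest rises, Crhr1, Ccdc81 and Zic2 were at least 737, 634 and 540-fold higher on the same floor.

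Genes that mark the embryonic mammary gland were higher in the stabilized bud than in the sprout more often than lower. Of 29 tested, 16 were higher, 5 were lower and 8 did not pass (median log2 fold change 0.82). Against E13.5 control buds, 10 were higher and 11 were lower (median -0.43). The homeobox factors Msx1 and Msx2, which act with Bmp in bud growth and nipple formation, averaged 107 and 50.1 CPM in stabilized buds and 0.862 and 3.43 CPM in control sprouts (6.94 and 3.87 on the log2 scale). Gata3, a luminal and hair regulator, had 361, 443, 451 and 333 CPM in stabilized buds, against 203, 261, 247, 194 and 208 CPM in control sprouts (0.83 ± 0.177, adjusted p = 0.000959, edgeR). The E13.5 control mean was 1048 CPM, above both. Hoxc8, which specifies mammary line position, averaged 17.8 ± 9.17 CPM in stabilized buds and 0.628 ± 0.291 CPM in control sprouts (4.83 ± 0.375, adjusted p = 9.12e-09, edgeR), with 66.7 CPM in E13.5 control buds. Sox10 (ENSMUSG00000033006, chromosome 15, 79154908 to 79165240, minus strand), a factor of neural crest that also marks mammary progenitors, was among the 5 lower members. It had 11.0, 9.89, 5.47 and 6.25 CPM in stabilized buds, against 535, 527, 614, 615 and 480 CPM in control sprouts (-6.09 ± 0.508, adjusted p = 1.23e-07, edgeR). Its mean in E13.5 control buds was 1.32 CPM, below both groups. Sox9, another progenitor factor and a sprout-stage gene, was already expressed (291 ± 46.4 CPM in stabilized buds, 328 ± 56.2 CPM in control sprouts and 131 CPM in E13.5 control buds, adjusted p = 0.481 against sprouts, edgeR).

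Luminal genes were mostly lower in the stabilized bud than in the sprout. Of 29 luminal genes tested, 19 were lower in stabilized buds, 4 were higher and 6 did not pass, with a median log2 fold change of -1.67. Compared with E13.5 control buds, 6 were higher and 8 were lower in stabilized buds (median 0). Sprout-stage members numbered 11, of which 10 were lacked (Pgr, Prlr, Cldn3, Ehf, Aldh1a3, Ly6d, Hey1, Tspan8, Lcn2 and Wfdc18) and 1, the keratin Krt7, was already expressed. Ehf, an Ets factor of glandular epithelium, had 0.855, 0.896, 0.693 and 1.01 CPM in stabilized buds, against 40.6, 45.4, 43.0, 47.7 and 44.4 CPM in control sprouts (-5.67 ± 0.437, adjusted p = 1.22e-08, edgeR). Its mean in E13.5 control buds was 0.133 CPM. The progesterone receptor gene Pgr had 7.18, 4.81, 7.8 and 7.52 CPM in stabilized buds, against 35.5, 31.9, 29.8, 33.5 and 29.1 CPM in control sprouts (-2.23 ± 0.302, adjusted p = 9.41e-06, edgeR). Aldh1a3, a retinaldehyde dehydrogenase of luminal progenitors, had 65.8, 32.2, 53.5 and 65.4 CPM in stabilized buds, against 195, 175, 175, 170 and 148 CPM in control sprouts (-1.67 ± 0.462, adjusted p = 0.00947, edgeR). E13.5 control buds averaged 0.769 CPM, below both groups. Krt8 was low against both normal stages, with 85.7, 113, 66.8 and 66.2 CPM in stabilized buds, against 291, 229, 253, 270 and 183 CPM in control sprouts (-1.57 ± 0.34, adjusted p = 0.00163, edgeR) and a mean of 268 CPM in E13.5 control buds.

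Basal genes were split. Of 20 genes of the basal layer, among them keratins, integrins and laminins, 8 were higher, 11 were lower and 1, Snai2, did not pass (median log2 fold change -0.72); 7 were lower with the offsets of the deposited normalized table. Trp63, the master regulator of stratified epithelium, had 415, 447, 512 and 448 CPM in stabilized buds, against 76.2, 103, 88.4, 87.4 and 106 CPM in control sprouts (2.31 ± 0.12, adjusted p = 2.57e-11, edgeR). E13.5 control buds averaged 414 CPM of Trp63, near the stabilized mean of 455 CPM. Krt5 had 1672, 923, 1636 and 1245 CPM in stabilized buds, against 358, 520, 462, 355 and 599 CPM in control sprouts (1.58 ± 0.227). Krt15 was higher as well (322 and 47.9 CPM, 2.75), while Krt17 (326 and 682 CPM, -1.06) and the hyaluronan receptor Cd44 (29.2 and 158 CPM, -2.44) were lower. Contractile genes of the later myoepithelium were lower in 8 of 16 cases, higher in 1, and 7 did not pass (median log2 fold change -1.38). Actg2 held 2 counts among the stabilized buds (0.0346 CPM in replicate 3 and 0.0327 CPM in replicate 4) and 35.2, 45.6, 50.4, 66.2 and 32.0 CPM in control sprouts, a sprout-to-bud ratio of 2711 (95% counting interval 750 to 22394). Mylk, the myosin light chain kinase gene, was the exception, with 25.8, 23.1, 19.7 and 21.6 CPM in stabilized buds and 2.98, 1.91, 2.59, 1.37 and 0.607 CPM in control sprouts (3.57 ± 0.395, adjusted p = 7.82e-07, edgeR). Tpm1 and Myl9 were already expressed (264 and 18.7 CPM in stabilized buds, 340 and 21.0 CPM in control sprouts). Of the 16 contractile genes, 7 were higher and 0 were lower in stabilized than in control E13.5 buds (median log2 fold change 1). Steroid and PTH hormone genes were near the background for lower members, with 6 of 23 higher, 5 lower and 12 not passing (median log2 fold change 0.26), and the lower count was 2 without stabilized replicate 1 and 3 without stabilized replicate 2 or control sprout replicate 2. The growth factor Igf2 was a higher member of that list, at 1674 ± 351 CPM in stabilized buds and 312 ± 36.8 CPM in control sprouts (2.43 ± 0.175, adjusted p = 2.52e-09, edgeR).

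Hair placode genes were high in the stabilized bud. Of 26 tested, 19 were higher, 2 were lower and 5 did not pass (median log2 fold change 2.18), and Shh, Ptch1, Gli1, Dkk4, Wnt10a, Wnt10b, Bmp2, Bmp4, Edar and Fgf20 are in the signalling lists above as well. Lhx2, a LIM-homeobox factor of hair follicle progenitors outside those lists, had 47.5, 42.5, 84.8 and 59.2 CPM in stabilized buds, against 0.175, 0.097, 0.188, 0.268 and 0.357 CPM in control sprouts (8.06 ± 0.503, adjusted p = 2.4e-09, edgeR). It was as low in E13.5 control buds (0.388 CPM). The sprout-stage placode genes Sox9, Foxi3, Sostdc1, Dsc2, Nfatc1 and Foxc1 were all already expressed in stabilized buds, and Runx1 fell between (269 and 418 CPM, -0.63). Of 41 genes of the hair shaft and its matrix, 11 were higher, 2 were lower and 28 did not pass (median log2 fold change -0.10; -0.19 when those at 0 counts are held to their bound). The higher members included regulators and enzymes, Hoxc13 (11.1 and 0.579 CPM, 4.27), Dlx3 (118 and 17.2 CPM, 2.77) and Padi1 (35.3 and 2.93 CPM, 3.58). The lower members were Foxn1 and Krt73, and both calls were lost without stabilized replicate 1 or 2, and without control sprout replicate 2. Most hair keratins and keratin-associated proteins stayed below 1 CPM in both groups, and reads of these near-identical families may be shared among members.

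Epidermal differentiation genes gave few calls. Of 46 tested, 4 were higher in stabilized buds, 10 were lower and 32 did not pass (median log2 fold change -0.90, or -1.08 with bounds). The lower count was 5 without stabilized replicate 2, 5 without control sprout replicate 4 and 6 without stabilized replicate 4. Krt1, a keratin of suprabasal epidermis, had 3.56, 1.56, 3.43 and 3.44 CPM in stabilized buds, against 13.3, 37.0, 30.6, 59.4 and 63.0 CPM in control sprouts (-3.76 ± 0.945, adjusted p = 0.00573, edgeR). Calm4, a calmodulin-like protein of differentiating keratinocytes, went the other way (26.0 CPM in stabilized buds, 2.49 CPM in control sprouts and 0.249 CPM in E13.5 control buds, 3.39, adjusted p = 0.00207 against sprouts, edgeR). Among the sprout-stage genes of the list, 7 were already expressed (Calm4, Krt6a, Tgm1, Grhl1, Klf4, Ovol1 and Zfp750), 2 fell between (Tgm3 and Calml3) and 4 were lacked (Krt1, Krt80, Dmkn and Krtdap). Grhl1, a grainyhead factor, averaged 22.2 CPM in stabilized buds and 24.3 CPM in control sprouts.

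Cell cycle genes stood between the normal stages. Of 45 tested, 41 were lower in stabilized buds than in control sprouts and 4 did not pass (median log2 fold change -1.10), while 43 were higher in stabilized than in control E13.5 buds (median 1.23). These comparisons have the stabilized libraries in common, so the values are given side by side. Mki67, a marker of dividing cells, had 595, 373, 593 and 549 CPM in stabilized buds, against 1367, 1300, 1225, 1372 and 1189 CPM in control sprouts (-1.29 ± 0.18, adjusted p = 1.28e-05, edgeR) and a mean of 176 CPM in E13.5 control buds. Of the 43 sprout-stage genes in the list, 31 were lacked, 10 fell between and 2, Ccne1 and Mybl2, were already expressed. Ccne1, the cyclin that starts DNA replication, had 44.4, 45.3, 37.4 and 35.4 CPM in stabilized buds and 40.8, 30.6, 34.7, 33.5 and 34.2 CPM in control sprouts (0.22 ± 0.159, adjusted p = 0.282, edgeR), with 6.97 CPM in E13.5 control buds. Inhibitors of the cycle and p53 targets were higher in 10 of 28 cases and lower in 6, and 12 did not pass (median log2 fold change 0.00). Cdkn1a, which encodes the inhibitor p21, had 471, 230, 458 and 376 CPM in stabilized buds, against 24.5, 37.5, 33.8, 41.4 and 43.4 CPM in control sprouts (3.41 ± 0.283, adjusted p = 3.9e-08, edgeR). Cdkn1c, encoding p57, averaged 379 ± 33.0 CPM in stabilized buds and 50.5 ± 11.5 CPM in control sprouts (2.91 ± 0.222, adjusted p = 5.45e-09, edgeR), but E13.5 control buds had more (544 CPM), whereas they had 10.2 CPM of Cdkn1a.

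Set against the sprout, glycolytic and immediate early genes were lower in the stabilized bud more often than higher. Of 26 glycolysis and hypoxia genes, 13 were lower, 2 were higher and 11 did not pass (median log2 fold change -0.79). Their summed CPM was 2874 to 4344 in stabilized buds, 6113 to 7833 in control sprouts and 2591 to 3869 in E13.5 control buds. Of the sprout-stage members, 9 were lacked, 3 fell between (Pfkl, Pgam1 and Pkm) and 1, the hexokinase gene Hk2, was already expressed. The enzyme gene Eno1 had 293, 264, 270 and 148 CPM in stabilized buds, against 1140, 834, 873, 921 and 643 CPM in control sprouts (-1.86 ± 0.213, adjusted p = 1.27e-06, edgeR). Aldoa, Ldha and Pkm fell by 1.66, 1.40 and 0.99 on the log2 scale, while the glucose transporter Slc2a1 did not pass (161 ± 32.5 CPM in stabilized buds, 135 ± 22.0 CPM in control sprouts). Of 22 immediate early and heat shock genes, 11 were lower and 11 did not pass (median log2 fold change -1.19). This list summed to 1415 to 2191 CPM in stabilized buds, 3116 to 4779 in control sprouts and 1104 to 1673 in E13.5 control buds. Its sprout-stage members comprised 10 lacked genes, 2 between (Jun and Hsp90aa1) and 2 already expressed, the near-identical heat shock genes Hspa1a and Hspa1b. Fos had 10.1, 6.97, 29.7 and 31.4 CPM in stabilized buds, against 351, 219, 422, 252 and 75.9 CPM in control sprouts (-3.76 ± 0.881, adjusted p = 0.00363, edgeR). The sprout libraries spread widely for this gene, replicate 5 being the lowest. The largest fall in the list was that of Egr2 (0.928 CPM in stabilized buds and 95.2 CPM in control sprouts, -6.67), a gene that also marks Schwann cells.

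**Figure D4:**
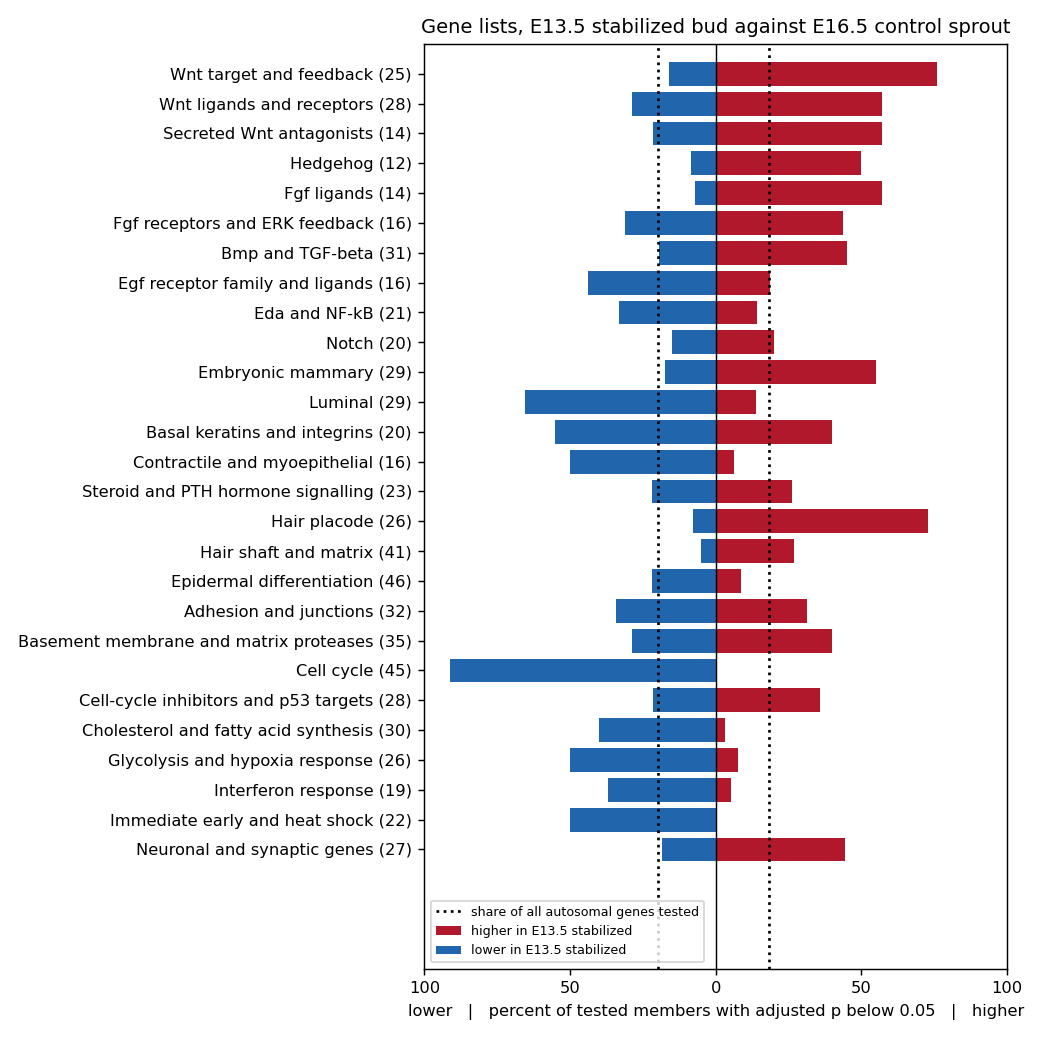
Share of tested members of each gene list (number tested in brackets) with an edgeR adjusted p below 0.05, higher in E13.5 stabilized buds than in E16.5 control sprouts (red, to the right) or lower (blue, to the left), in percent. Dotted lines mark the shares over all autosomal genes tested, 18.2% higher and 19.7% lower; the cell cycle list reaches farthest to the left and the Wnt target list farthest to the right.

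Adhesion and matrix lists were split, and neuronal genes were higher more often than lower. Of 32 adhesion and junction genes, 10 were higher, 11 were lower and 11 did not pass (median log2 fold change -0.17). Cdh2 and Cdh4, cadherins more typical of neural and mesenchymal cells, rose by 3.64 and 5.28 on the log2 scale, and the tight junction gene Cldn3 fell (10.1 and 84.1 CPM, -3.06). Of 35 basement membrane and protease genes, 14 were higher, 10 were lower and 11 did not pass (median log2 fold change 0.29). Frem1, a basement membrane protein of the developing skin, had 197, 232, 191 and 199 CPM in stabilized buds, against 2.45, 7.95, 4.25, 1.07 and 0.964 CPM in control sprouts (5.94 ± 0.526, adjusted p = 2.79e-07, edgeR). The laminin gene Lama4 had 2.19, 0.332, 1.42 and 3.47 CPM in stabilized buds, against 130, 108, 104, 95.3 and 104 CPM in control sprouts (-5.87 ± 0.707, adjusted p = 7.82e-06, edgeR). Both genes separated the groups fully, in opposite directions. Of 27 neuronal and synaptic genes, 12 were higher, 5 were lower and 10 did not pass (median log2 fold change 1.14). The lower share was below that of all genes, and the lower count was 2 or 3 without any single stabilized library or without control sprout replicate 1, 2, 4 or 5. Summed CPM of the list was 505 to 531 in stabilized buds, 143 to 176 in control sprouts and 424 to 448 in E13.5 control buds. In stabilized against E13.5 control buds, 5 members were higher and 4 were lower. Tubb3, a neuronal tubulin, had 198, 135, 211 and 189 CPM in stabilized buds, against 2.33, 7.01, 5.75, 4.69 and 5.75 CPM in control sprouts (5.16 ± 0.276, adjusted p = 5.96e-11, edgeR).

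Markers of other cell types moved with parts of this comparison, and their part in the results was not tested. Summed immune markers were 5.28 to 7.76 CPM in stabilized buds and 26.0 to 36.4 CPM in control sprouts, with 7 of 15 lower and Tyrobp at 0 in stabilized buds, beside the mast cell and complement genes named above. Summed melanocyte markers were 49.4 to 78.7 CPM in stabilized buds and 687 to 863 CPM in control sprouts, with 8 of 11 lower and 1 higher; Oca2 and Tyrp1 were at 0 in stabilized buds, and Oca2 also in sprouts. Neural crest and Schwann markers summed to 172 to 209 CPM in stabilized buds and 952 to 1128 CPM in control sprouts, with 6 of 11 lower and Cdh19 and Fabp7 at 0 in stabilized buds. Sox10 was the largest single contributor to both of these sums in the sprout, and Sox10, Kit and Erbb3 are also members of lists above. The melanocyte enzyme Dct, which is in none of those lists, had 9.13, 4.11, 2.53 and 5.14 CPM in stabilized buds, against 78.8, 45.5, 64.9, 91.3 and 59.5 CPM in control sprouts (-3.70 ± 0.501, adjusted p = 2.21e-05, edgeR). Mesenchyme markers summed to 677 to 886 CPM in stabilized buds and 268 to 634 CPM in control sprouts, with 3 of 15 higher and 2 lower (median log2 fold change -0.38). Postn alone made up 490, 673, 415 and 375 CPM of the stabilized sums. The rest of the sum overlapped between the groups. Postn was among the higher markers, at 488 ± 132 CPM in stabilized buds and 13.2 ± 6.52 CPM in control sprouts (5.21 ± 0.518, adjusted p = 1.11e-06, edgeR). The collagen Col1a1 was lower (13.1 and 69.3 CPM, -2.40). Merkel cell markers summed to 71.2 to 114 CPM in stabilized buds and 27.8 to 39.9 CPM in control sprouts, with 4 of 7 higher, while Atoh1 and Pou4f3, which define these cells, had no count in stabilized buds. Endothelial sums were 9.32 to 27.2 CPM in stabilized buds and 8.71 to 21.5 CPM in control sprouts, with Emcn at 0 in stabilized buds. Muscle sums were 11.3 to 15.3 CPM in stabilized buds and 3.17 to 41.5 CPM in control sprouts, with Myod1, Myog and Pax7 at 0 in control sprouts. Adipocyte sums were 27.0 to 60.3 CPM in stabilized buds and 38.6 to 68.4 CPM in control sprouts. Erythroid sums were 0.262 to 17.0 CPM in stabilized buds and 0.067 to 3.28 CPM in control sprouts, the highest being stabilized replicate 1.

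**Figure D5:**
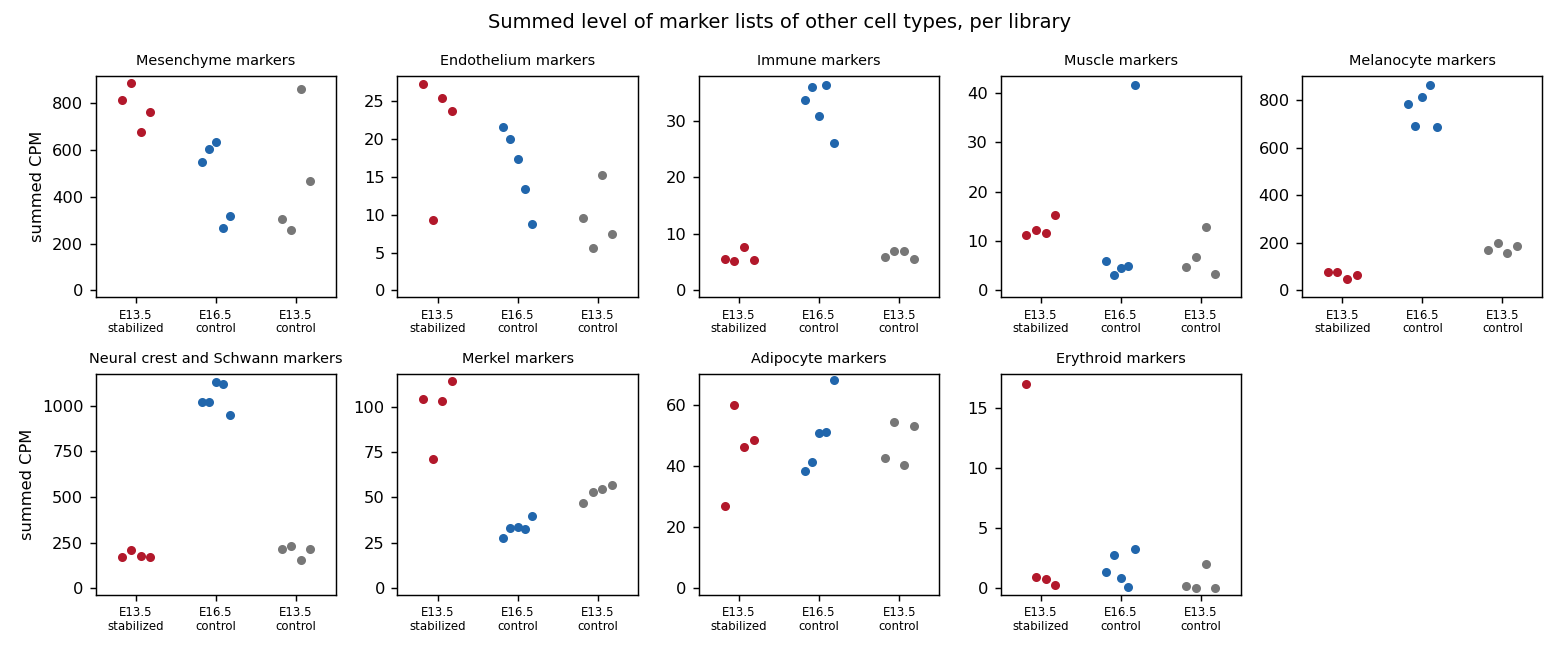
Summed CPM of the marker lists of 9 other cell types in each library, with E13.5 stabilized buds (red) left of E16.5 control sprouts (blue) and E13.5 control buds (grey). Immune, melanocyte and neural crest sums are lower in every stabilized bud than in any sprout, and Merkel and mesenchyme sums are higher in every stabilized bud. Postn makes up a large part of the mesenchyme sums in stabilized buds.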

How the data were processed

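Transcripts were counted by RNA-seq in 18 libraries of dissected mouse mammary epithelium made with the Ovation SoLo kit, per the labels' protocols. Per the submitters' processing notes, the tools were Salmon 0.99.0, Trimmomatic 0.39, DESeq2 3.15, FastQC 0.11.8 and MultiQC 1.9, with the build mm10. The authors deposited estimated counts per Ensembl gene, which were whole numbers already, and a normalized signal (each count divided by a factor specific to gene and library), used only to derive offsets for an alternative. No source used here states the annotation release, strand or counter settings; overlapping or antisense genes and near-identical families have uncertain counts. A deposited R object was not read.

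Of 24376 genes, 24190 matched GENCODE M21 (GRCm38/mm10). In edgeR 4.0.16 (R 4.3.3), filterByExpr (minimum count 10) kept 17269 genes. A robust quasi-likelihood model with TMM scaling, 1 coefficient for each group and all 18 libraries was used, two-sided, with Benjamini-Hochberg adjustment over all tested genes and a threshold of 0.05. The model was also run on simulated counts with a dispersion of 0.05 and few changed genes. The common dispersion of these data was 0.25, so that run does not measure error rates here. CPM used TMM-scaled totals. A group at 0 counts was set to a floor of 3 counts over the group (0.0252 CPM for stabilized buds, 0.02 CPM for control sprouts), and groups with 1 to 3 counts got an exact 95% interval of the count ratio; intervals and floors cover counting error only.

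The comparison, its members and the 36 lists (761 members, 745 autosomal, 713 tested) were chosen with earlier results of these data known. Named were Ctnnb1, Krt14, Axin2 and Lef1; per direction the 10 called genes with the largest fold change, a mean of 10 CPM or more in the higher group and no overlap; the 8 lacked and 8 already expressed sprout-stage genes with the largest normal rise at 20 CPM or more; and per list up to 4 members by adjusted p, up to 2 that did not pass, and others to account for a list. Alternatives were DESeq2 (1.42.0) size factors and Wald test, no filter, the 9 libraries alone, offsets, autosomal adjustment, each library left out, a replicate block, other floors and a stricter sprout-stage change. Promoters came from RefSeq (GRCm38.p6).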

Additional observations from a re-analysis of the deposited data

How the results depend on the processing

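No named gene that had been called changed direction under the alternatives run; 12 named-gene values lost their call and 8 gained one, and 3005 stayed on their side of the threshold. Autosomal calls numbered 6288, and 6279 with DESeq2 size factors, 6699 with the DESeq2 Wald test, 5831 without the low-count filter, 7155 with the 9 libraries alone (5954 shared) and 4710 with the offsets of the deposited normalized table (4389 shared). Leaving out a library gave 2503 to 2831 higher and 2832 to 3099 lower genes, 923 to 1046 lacked and 347 to 440 already expressed genes. Requiring a sprout-stage change of 2 on the log2 scale left 843 sprout-stage genes, with 609 lacked, 117 already expressed and 117 between. Sprout-stage classes were not run with the 9 libraries alone, since they need E13.5 control buds. With a floor of 10 counts, 59 genes were in the sprout and not the stabilized bud and 79 the reverse; with a floor of 0 counts the reverse count was 16. Leaving out a library gave 27 to 43 (43 without stabilized replicate 1) and 35 to 42. Flt1, Hsp90aa1, Scd1 and Nrg2 lost their call under some alternative. The endothelial marker Flt1 missed without the filter (adjusted p = 0.0547), without stabilized replicate 1, 3 or 4 or control sprout replicate 1, 2, 4 or 5 (0.0608 to 0.0885) and with the replicate block (0.105), the other genes with the offsets (adjusted p = 0.0727, 0.277 and 0.261, edgeR).

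Deviations of same-numbered libraries had correlations of 0.134, -0.0602, 0.0884 and -0.0213 for replicates 1, 2, 3 and 4. The largest correlations with an other-numbered sprout library were 0.0979, 0.169, 0.0349 and 0.153. The same number gave the larger value for replicates 1 and 3 only, so the replicate numbers are not shown to pair libraries. The replicate block was fitted without replicate 5 of the E16.5 control and E16.5 stabilized groups. With it, 5626 genes were called, 2637 higher and 2989 lower (5398 shared), with 1032 lacked and 358 already expressed. This alternative also took the lower hair shaft calls away and left 2 lower neuronal and 5 lower epidermal genes. The parts of the block and of the omitted libraries in these changes were not separated. Leaving out E13.5 control replicate 3 and E16.5 stabilized replicate 4, an alternative chosen after seeing the data, gave 7001 calls (6251 shared). Depth limits the genes at 0 counts to the bounds given.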

Other observations

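Genes of the normal bud that fade by the sprout stage were also followed in the mutant. By the mirror rule, 1836 autosomal genes were lower in E16.5 than in E13.5 control libraries by at least 2-fold and at 1 CPM or more in each E13.5 control bud. Of these, 1011 were at least 2-fold higher in stabilized buds than in control sprouts, 520 were not called, and the median log2 fold change was 1.22; 422 were lower in stabilized than in control E13.5 buds. The comparisons share libraries, so the counts are a description. Kremen2, a Dkk receptor, averaged 107 CPM in stabilized buds, 25.1 CPM in control sprouts and 388 CPM in E13.5 control buds, a gene that kept part of its bud level. Ndnf, a secreted neurotrophic factor, had 18.6, 170, 29.0 and 25.4 CPM in stabilized buds, replicate 2 standing apart, and means of 40.5 CPM in control sprouts and 1126 CPM in E13.5 control buds.

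Lipid and interferon genes held a few further differences. Of 30 cholesterol and fatty acid synthesis genes, 12 were lower in stabilized buds than in control sprouts, 1 was higher and 17 did not pass (median log2 fold change -0.41). The higher member was Hmgcs1, an early enzyme of cholesterol synthesis (386 CPM in stabilized buds and 181 CPM in control sprouts, 1.09, adjusted p = 6.39e-06, edgeR). Of 19 interferon response genes, 7 were lower, 1 was higher and 11 did not pass (median log2 fold change -0.01), among them Irf1 (1.14 and 10.5 CPM, -3.19) and the class I antigen presentation genes B2m (22.1 and 63.5 CPM, -1.52), H2-K1 (6.65 and 20.9 CPM, -1.65) and H2-D1 (7.07 and 26.4 CPM, -1.90). Summed immune markers were also lower in stabilized buds, and their part in these values was not tested.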
